A study of Mus musculus with 6 samples.

Results

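The Polycomb repressive complex genes described here are Ezh2, Eed, Suz12, Jarid2, Mtf2, Rnf2, Ring1, Bmi1, Cbx7 and Phc1, 10 of the 19057 named genes on the array. They were chosen by name, and all 20 of their probes were taken from the platform's gene symbols. RNA came from mouse embryonic stem (ES) cells electroporated with a pHYPER vector, in 3 samples carrying an shRNA against Chd1, which encodes an ATP-dependent chromatin remodeller, and in 3 control samples. The labels name neither the insert of the control vector, nor the ES cell line, nor whether replicates were grown apart, and p-values therefore cover the spread among these 6 samples, which may be technical. Both groups grew in 15% serum and LIF on mitomycin C-treated embryonic fibroblasts, whose RNA can enter the samples, and both were selected with puromycin for 48 h, from 24 h after electroporation. Each sample was hybridised to 1 bead array, and precision is limited by having 3 arrays a group. The arrays detected 16285 to 17391 probes in Chd1 shRNA and 15663 to 15925 in control samples. Each group took a run of adjacent chip positions, so chip position and treatment cannot be told apart.

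Polycomb proteins keep developmental genes silent. Polycomb repressive complex 2 (PRC2) methylates lysine 27 of histone H3, and Polycomb repressive complex 1 (PRC1) adds ubiquitin to histone H2A and compacts chromatin. In ES cells both complexes sit at CpG-rich promoters of lineage regulators, many of which also carry the histone mark that CHD1 binds. In bulk RNA, fewer cells of a type and less RNA per cell cannot be told apart.

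No Polycomb gene differed between Chd1 shRNA and control samples past an adjusted p of 0.05 (limma, adjusted over 16018 probes). Of the 20 probes, 14 passed the detection filter, which asks for a detection p under 0.05 on 3 or more of the 6 arrays, and they read 8 of the 10 genes. Of these 14, 9 had lower and 5 had higher mean signal in Chd1 shRNA arrays, where 49.5% of all kept probes had lower means. The PRC2 genes Ezh2, Eed, Suz12 and Mtf2 had lower means on every probe that passed, the largest difference among them being -0.57 on a log2 scale, a level of 67.4% of control. Ring1 and Bmi1, of PRC1, had higher means, up to 155% of control for Bmi1. Adjusted p-values of the 14 probes lay between 0.438 and 0.945. Over all probes that passed the filter 0 of 16018 (0%) were called, while 10.4% had an unadjusted p under 0.05, as did 2 of the 14 Polycomb probes. Leaving out Chd1 shRNA replicate 1 made that count 4, leaving out replicate 2 of that group made it 1, and leaving out either its replicate 3 or control replicate 1 made it 0.

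**Figure D1:**
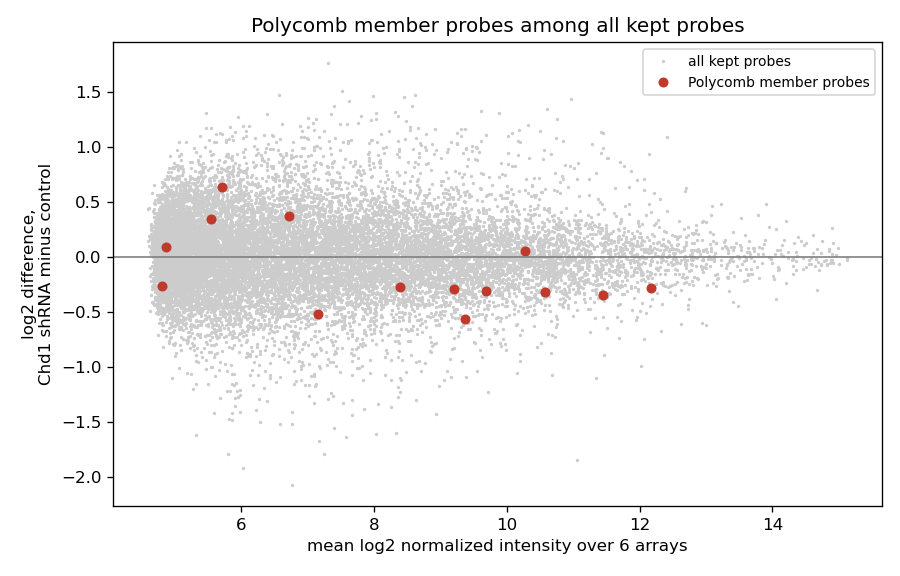
Log2 difference (Chd1 shRNA minus control, vertical axis) against the mean log2 normalized intensity over 6 arrays (horizontal axis), for all 16018 kept probes (grey) and the 14 Polycomb probes (red). The Polycomb probes lie within the cloud of all probes, between -0.57 and 0.63.

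The labels were checked on the targeted transcript. On the Chd1 probe with the highest mean signal, ILMN_1258834, log2 normalized intensity was 5.95, 5.95 and 5.29 in the Chd1 shRNA arrays, against 7.70, 8.81 and 6.91 in the control arrays. All Chd1 shRNA arrays lay below all control arrays. The log2 difference was -2.07 (SE 0.43, n = 3 per group, adjusted p = 0.205 by limma), a level of 23.7% of control. Probes ILMN_1254296 and ILMN_1246790 also had non-overlapping groups, at 26.5% and 45.1% of control, and the fourth, ILMN_2958382, gave 92.6% near background.

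The promoters of the 3 PRC2 core genes are shown because all 3 genes had lower mean signal together, though none passed the test. Each line gives the 250 bases before the RefSeq transcription start (GRCm38.p6, 5′ to 3′ on the gene's strand), with capitals marking a match to an E2F-type motif, the kind of site bound by E2F factors, which regulate cell cycle genes. Ezh2 lies at chr6:47595031-47595280 (minus strand), Eed at chr7:89980977-89981226 (minus strand) and Suz12 at chr11:79992856-79993105 (plus strand).
Ezh2: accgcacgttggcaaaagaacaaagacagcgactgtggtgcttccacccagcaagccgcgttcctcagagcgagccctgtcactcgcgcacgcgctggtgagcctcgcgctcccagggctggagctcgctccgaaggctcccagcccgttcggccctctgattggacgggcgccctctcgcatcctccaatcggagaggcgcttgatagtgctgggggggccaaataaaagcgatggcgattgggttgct
Eed: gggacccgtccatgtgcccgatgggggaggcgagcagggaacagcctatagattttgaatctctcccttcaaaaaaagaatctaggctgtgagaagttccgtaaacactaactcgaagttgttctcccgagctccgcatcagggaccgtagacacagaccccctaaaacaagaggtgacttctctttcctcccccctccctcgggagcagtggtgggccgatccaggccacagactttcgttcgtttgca
Suz12: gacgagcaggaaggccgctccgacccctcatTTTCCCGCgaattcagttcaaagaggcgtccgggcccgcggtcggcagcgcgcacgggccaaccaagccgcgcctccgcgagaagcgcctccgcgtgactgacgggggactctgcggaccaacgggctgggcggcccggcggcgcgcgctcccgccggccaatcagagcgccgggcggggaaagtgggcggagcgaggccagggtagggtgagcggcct
The motif was searched on both strands as TTTCCCGC, TTTGGCGC, TTTCGCGC or TTTGCCGC, and 1.86% of 32851 promoter windows of the same length in the RefSeq table held a match. The Suz12 window held 1 match and the other windows held none of these letters. The windows of Ezh2, Eed and Suz12 held 23, 12 and 37 CpG dinucleotides, where the median over all windows was 6. Of all windows, 13.3% held at least 23, 33.5% at least 12 and 2.2% at least 37. A match is a description of letters and no evidence that a factor binds.

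Among the PRC2 core genes, Eed, whose protein binds methylated lysine 27 and stimulates the enzyme, had the smallest p of the 8 genes measured. Its probe ILMN_2765015 read 7.25, 6.60 and 6.84 in the Chd1 shRNA arrays, against 7.43, 7.33 and 7.51 in the control arrays. The groups did not overlap, and Chd1 shRNA replicate 1 lay nearest to the controls. The log2 difference was -0.52 (SE 0.21, n = 3 per group, 95% confidence interval -0.99 to -0.058, adjusted p = 0.438 by limma), or 69.5% of control. A second Eed probe, ILMN_1253609, annotated to a cDNA clone and detected on 3 of 6 arrays, gave -0.26 (SE 0.22). Over all kept probes, 8.58% had non-overlapping groups with lower Chd1 shRNA values, and among the Polycomb probes 2 of 14 did.

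Suz12, the scaffold subunit that PRC2 needs for stability, was read by probe ILMN_3009010 at 11.62, 11.23 and 10.96 in the Chd1 shRNA arrays, against 11.74, 11.67 and 11.46 in the control arrays. Chd1 shRNA replicate 1 lay inside the control range and the other two below it. The log2 difference was -0.35 (SE 0.21, 95% confidence interval -0.83 to 0.13). Its other probe, ILMN_2764991, was above background on no array. Ezh2, the methyltransferase subunit, read 9.54, 8.97 and 8.66 in the Chd1 shRNA arrays, against 9.23, 9.76 and 9.08 in the control arrays, on ILMN_1234171. These groups overlapped, since Chd1 shRNA replicate 1 was above 2 of the 3 controls, and the difference was -0.30 (SE 0.27). Its 95% confidence interval, -0.91 to 0.32, included 0. The other Ezh2 probes did not pass the filter, and one of them, ILMN_2988572, was detected on 2 Chd1 shRNA arrays and 0 control arrays.

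Of the accessory PRC2 genes, Mtf2, a Polycomb-like protein that binds unmethylated CpG-rich DNA and recruits PRC2, was measured by 3 probes. On ILMN_2452440 it read 9.23, 9.26 and 8.77 in the Chd1 shRNA arrays, against 10.03, 9.55 and 9.39 in the control arrays, with no overlap. The log2 difference was -0.57 (SE 0.23, 95% confidence interval -1.09 to -0.047, adjusted p = 0.449 by limma). The other 2 probes gave smaller differences with overlapping groups, -0.28 (SE 0.23) on ILMN_2703913, the one with the highest signal, and -0.32 (SE 0.23) on ILMN_2823796. On both, control replicate 3 read below the other controls, at 11.90 against 12.55 and 12.49 on ILMN_2703913. Jarid2, which helps PRC2 bind its sites in ES cells, could not be measured: both its probes were above background on none of the 6 arrays, so no level or difference is given.

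**Figure D2:**
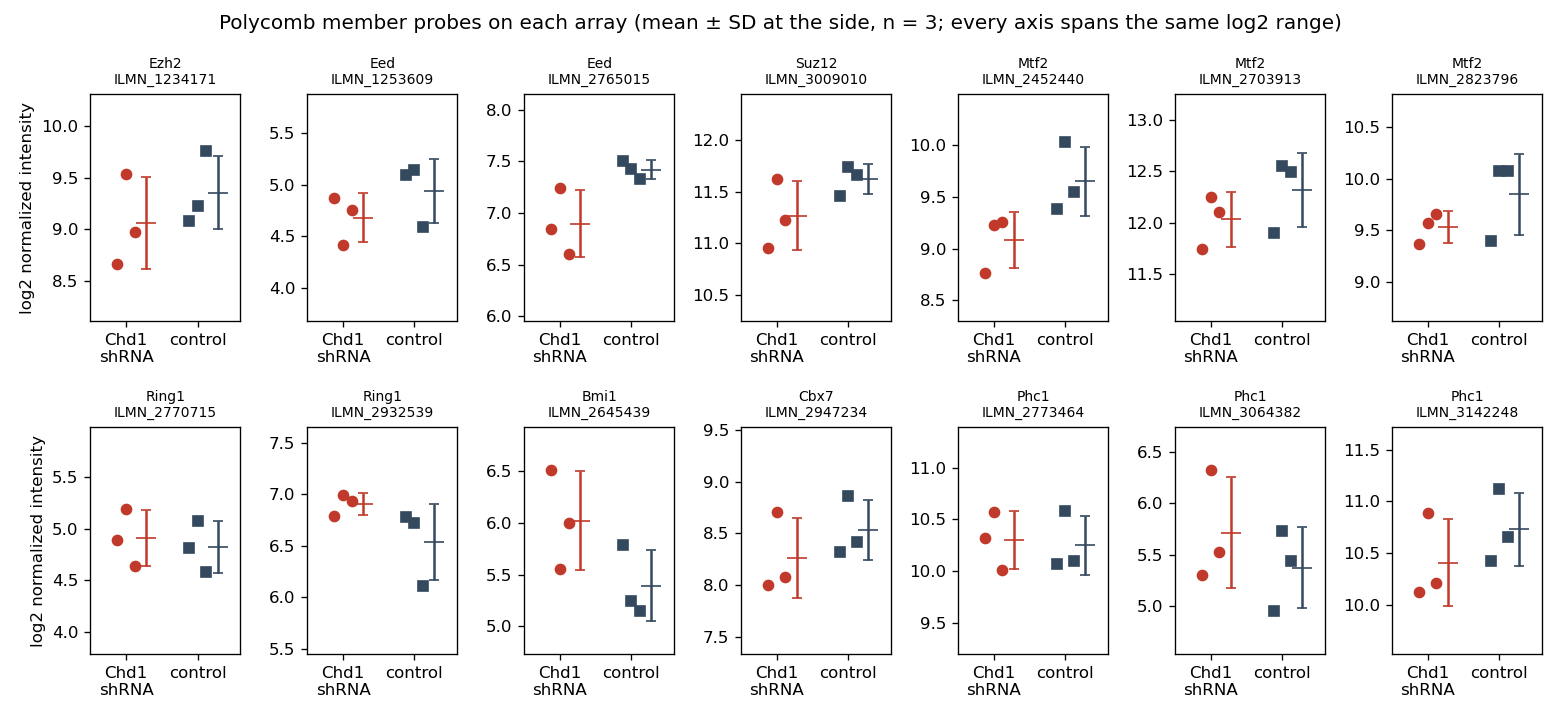
Log2 normalized intensity (vertical axis) of the 14 Polycomb probes past the detection filter on each Chd1 shRNA array (red circles) and control array (dark squares), with mean ± SD at the side (n = 3 per group). Only Eed ILMN_2765015, Mtf2 ILMN_2452440 and, by a narrow gap, Ring1 ILMN_2932539 have groups that do not overlap.

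The ubiquitin ligases of PRC1 are encoded by Ring1 and Rnf2 (the gene of RING1B). Ring1 probe ILMN_2932539 read 6.99, 6.94 and 6.79 in the Chd1 shRNA arrays, against 6.72, 6.11 and 6.78 in the control arrays. The groups did not overlap, by a gap of 0.0052 between Chd1 shRNA replicate 3 and control replicate 3, and control replicate 2 stood lowest. The log2 difference was 0.37 (SE 0.22, 95% confidence interval -0.13 to 0.86, adjusted p = 0.567 by limma). Non-overlap with higher Chd1 shRNA values was found for 1 of the 14 Polycomb probes and for 6.92% of all kept probes. The second Ring1 probe, ILMN_2770715, near background, gave 0.088 (SE 0.21), which turned to -0.084 with 75th percentile scaling. The single Rnf2 probe was above background on no array, at 4.41 to 4.53 in the Chd1 shRNA arrays and 4.56 to 4.76 in the control arrays, so the order of these values was not read.

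In canonical PRC1, Bmi1, a PCGF subunit known for repressing the Cdkn2a locus in fibroblasts and adult stem cells, had the largest positive difference of the 8 genes measured. Its probe read 5.55, 6.00 and 6.52 in the Chd1 shRNA arrays, against 5.25, 5.15 and 5.79 in the control arrays. Control replicate 3 lay above Chd1 shRNA replicate 1, so the groups overlapped. The log2 difference was 0.63 (SE 0.28, 95% confidence interval -0.00082 to 1.26, adjusted p = 0.480 by limma). Cbx7, the chromodomain subunit that prevails in ES cells and reads methylated lysine 27, read 8.70, 8.08 and 8.00 in the Chd1 shRNA arrays, against 8.86, 8.42 and 8.32 in the control arrays. Its difference was -0.27 (SE 0.24), again with Chd1 shRNA replicate 1 among the controls, and turned to 0.036 with median scaling.

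Phc1, a polyhomeotic subunit whose SAM domain links PRC1 complexes into larger assemblies, was read by 3 probes that differed in sign. ILMN_3142248, the one with the highest signal, read 10.89, 10.21 and 10.12 in the Chd1 shRNA arrays, against 11.12, 10.65 and 10.42 in the control arrays, a difference of -0.32 (SE 0.27). ILMN_3064382 gave 0.34 (SE 0.30) and ILMN_2773464 gave 0.054 (SE 0.22). All 3 intervals include 0, so the probes set no direction for Phc1, and which transcripts each reads was not analysed here. On all of them Chd1 shRNA replicate 1 was the highest of its group.

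**Figure D3:**
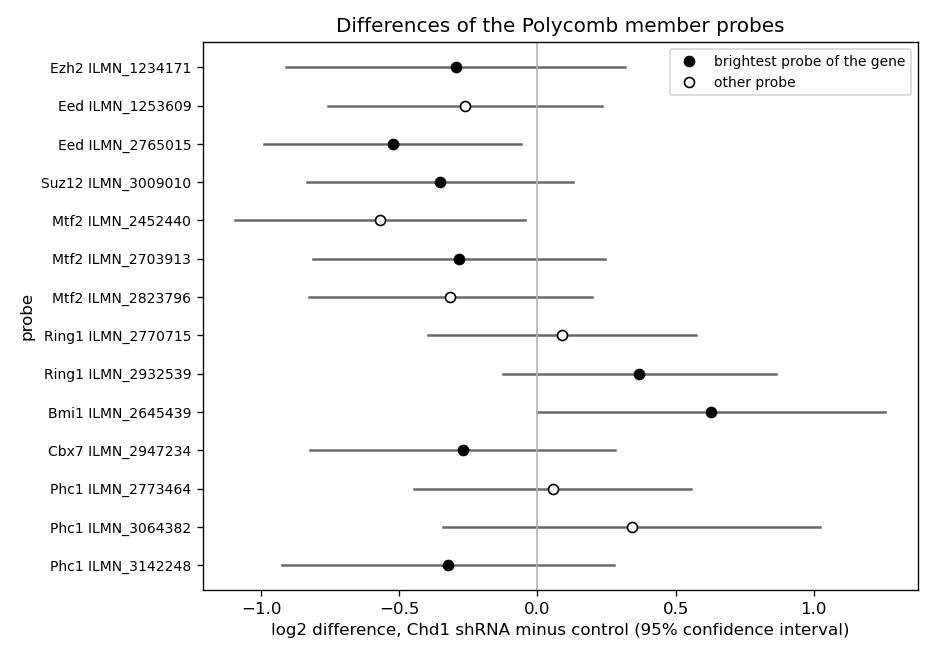
Log2 difference, Chd1 shRNA minus control (horizontal axis), with its 95% confidence interval for each of the 14 Polycomb probes past the filter, from PRC2 core (top) to canonical PRC1 (bottom). Filled circles mark the probe with the highest mean of each gene. The intervals of Eed ILMN_2765015 and Mtf2 ILMN_2452440 exclude 0 before adjustment over all probes.

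Taking for each gene its probe with the highest mean, 6 of 8 genes had lower means in Chd1 shRNA arrays, with a median log2 difference of -0.29. Over all 11600 genes and unnamed probes treated in the same way, 49.8% were lower and the median was 0.0012. Median scaling moved the median of all genes to 0.21 and that of the Polycomb genes to -0.046, a gap of -0.26 that was close to the gap of -0.29 under quantile normalization. The arrays of a group were not alike. The median over the 8 genes, relative to each gene's mean over the 6 arrays, was 0.22, -0.23 and -0.41 in the Chd1 shRNA arrays, against 0.28, 0.13 and -0.030 in the control arrays. Chd1 shRNA replicate 1 thus read like control replicates 1 and 2. The median difference was -0.51 when Chd1 shRNA replicate 1 was left out and -0.14 when Chd1 shRNA replicate 3 was. It was -0.15 without control replicate 1 and -0.43 without control replicate 3.

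Signal of fibroblast markers, genes that the feeder cells express, also differed between arrays, and was high where the median of the Polycomb genes was low. Of 15 markers, 10 passed the detection filter, and 9 of the 10 had higher means in Chd1 shRNA arrays. Of the 10, 0 passed the test by limma and 5 had an unadjusted p under 0.05, where 10.8% of all genes did. Their summed normalized intensity ranged from 8434 to 15334 in the Chd1 shRNA arrays and from 3842 to 12040 in the control arrays. For Col1a2, Col3a1, Postn and Pdgfrb no probe passed the filter. Lum was detected on 3 Chd1 shRNA arrays and 1 control array, and passed mainly through the group where it was higher. Thy1, the fibroblast marker with a lower mean, gave -0.18 (SE 0.25). The median marker, relative to its 6-array mean, was -0.23, 0.59 and 0.85 in the Chd1 shRNA arrays, against -0.79, -0.87 and 0.33 in the control arrays. Bmi1 ranked the 6 arrays in the same order as this score. On the probe with the highest mean of each gene, Ezh2, Eed, Suz12, Cbx7 and Phc1 were lowest on Chd1 shRNA replicates 2 and 3. These were the arrays with the most fibroblast signal. The other kept Eed and Phc1 probes and all Mtf2 probes did not show this. The part of feeder RNA in the Polycomb differences was not tested. All 8 ES cell markers passed the filter, though Tdgf1 was detected on 3 Chd1 shRNA arrays and only 2 control arrays. Their means were lower in Chd1 shRNA arrays for 7 of 8, with a median log2 difference of -0.39, and 0 passed the test by limma. An unadjusted p under 0.05 was found for 3 of 8, where 10.8% of all genes had one. These 3 were Sox2 with -0.79 (SE 0.32), Zfp42 with -0.78 (SE 0.27) and Esrrb with -0.44 (SE 0.19). Nanog, the marker with a higher mean, gave 0.17 (SE 0.24) on ILMN_2706623 and 0.16 (SE 0.17) on ILMN_1245732. Dppa5a gave -0.029 (SE 0.17), but read the same, 15.18, on Chd1 shRNA replicate 3 and control replicates 1 and 3. Quantile normalization gives equal ranks equal values, and whether this probe was at the upper limit of signal was not tested. Pou5f1 read 11.43, 11.09 and 11.16 in the Chd1 shRNA arrays, against 11.53, 11.35 and 11.59 in the control arrays. The part of the ES cell signal in the Polycomb differences was not tested either.

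**Figure D4:**
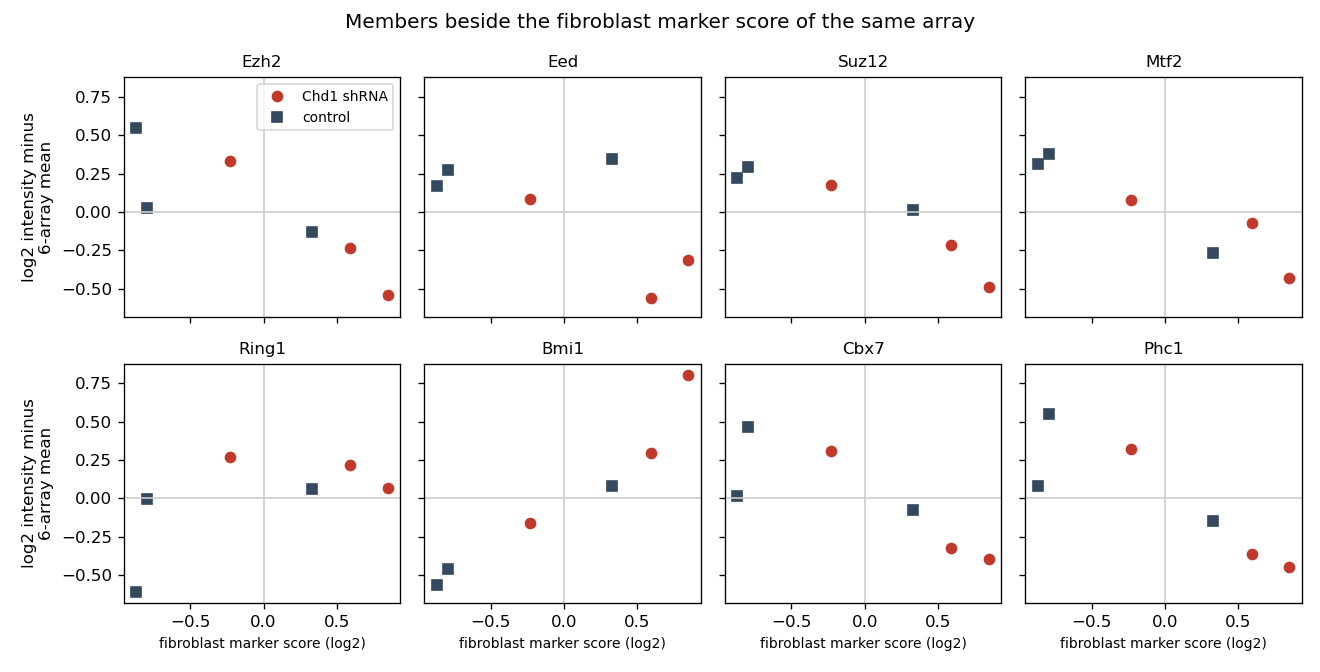
Log2 intensity of each Polycomb gene minus its 6-array mean (vertical axis) against the fibroblast marker score of the same array (horizontal axis, log2), for Chd1 shRNA (red circles) and control arrays (dark squares). Bmi1 follows the order of the score, from -0.56 to 0.81, while Suz12 is lowest, at -0.49, where the score is highest.

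The wider set of Polycomb genes was described from lists of other subunits and antagonists, of which 39 of 41 genes had a probe and 35 passed the filter and 0 passed the test by limma. Here 20 had lower and 15 higher means, with a median log2 difference of -0.058, and 2 genes had an unadjusted p under 0.05, where 10.8% of all genes did. Both belong to canonical PRC1. This count uses the probe with the highest mean of each gene. Outside it, dimmer probes of genes not in canonical PRC1 also had an unadjusted p under 0.05 by limma. These were E2f6 ILMN_2791963 with 0.44 (SE 0.18) and Aebp2 ILMN_3040064 with 0.53 (SE 0.22). Pcgf2, a PCGF subunit related to Bmi1, read 5.81, 5.55 and 5.82 in the Chd1 shRNA arrays, against 6.30, 6.09 and 6.32 in the control arrays. The groups did not overlap, and the difference was -0.51 (SE 0.18, adjusted p = 0.399 by limma), opposite in sign to that of Bmi1. Phc2, related to Phc1, read 9.06, 9.50 and 9.58 in the Chd1 shRNA arrays, against 8.28, 8.81 and 9.00 in the control arrays. These groups did not overlap either, and the difference was 0.69 (SE 0.24, adjusted p = 0.400 by limma). Whether the differences of these relatives differ from each other was not tested. Cbx6, another chromodomain subunit, gave 0.47 (SE 0.26).

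Among 6 other PRC2 genes that passed the filter, 4 had lower means (median -0.035). Ezh1, the second methyltransferase of PRC2, gave 0.39 (SE 0.22), Epop, a PRC2 partner in ES cells, gave -0.33 (SE 0.20) and the histone-binding subunit gene Rbbp4 gave -0.23 (SE 0.19). Ezh1 lay near background. It was detected on 3 Chd1 shRNA arrays and 1 control array, and passed the filter mainly through the group where it was higher. In variant PRC1, which lacks CBX subunits, 9 of 17 genes had lower means (median -0.063). Auts2 had a value of -0.51 (SE 0.23), Yaf2, a relative of the RYBP subunit, 0.51 (SE 0.23) and Bcorl1, a corepressor, -0.43 (SE 0.22). Dimmer kept probes had the opposite sign, with 0.026 (SE 0.27) for Auts2 ILMN_3052726 and 0.16 (SE 0.21) for Bcorl1 ILMN_3067548. This Bcorl1 probe was detected on 3 Chd1 shRNA arrays and 1 control array, and passed mainly through the group where it was higher. Antagonists split evenly, 3 of 6 lower, with a median of -0.031. The H2A deubiquitinase gene Bap1 had a value of 0.28 (SE 0.21), its partner Asxl2 -0.25 (SE 0.19) and the lysine 27 demethylase gene Kdm6b -0.23 (SE 0.22). Asxl2 was detected on 1 Chd1 shRNA array and 3 control arrays, and passed mainly through the control group, where it was higher. Other kept Kdm6b probes gave 0.049 (SE 0.19) on ILMN_2693361 and -0.68 (SE 0.37) on ILMN_3095624.

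**Figure D5:**
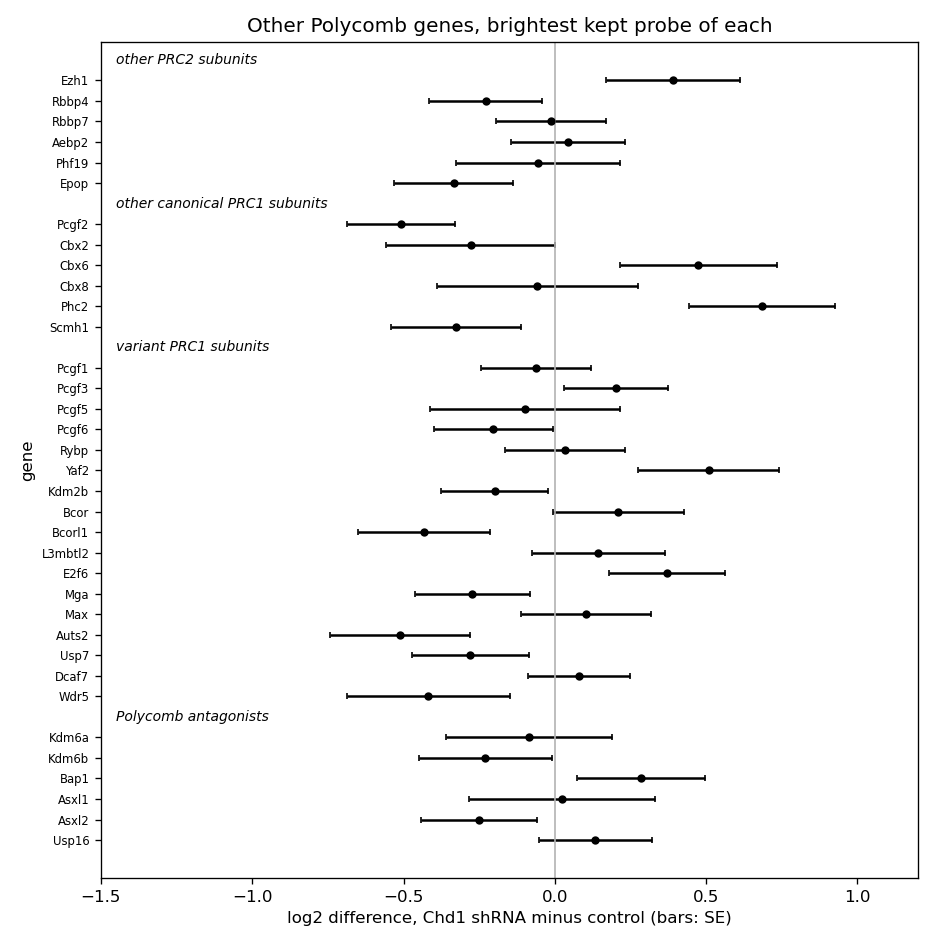
Log2 difference, Chd1 shRNA minus control (horizontal axis, bars are SE, n = 3 per group), of the 35 other Polycomb genes that passed the detection filter, by group. Pcgf2 (-0.51) and Phc2 (0.69) stand farthest from 0 in units of their SE, and none passed the test.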

How the data were processed

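Bead array data of 3 Chd1 shRNA and 3 control samples were analysed. The authors deposited unnormalized bead intensities for 45281 probes, summarised with GenomeStudio per the submitters' processing notes, and a detection p-value per probe and array per the file headers. A second table of processed intensities that the authors deposited, with equal column medians (107.6) and the probe ranks of the first, served as an alternative; the labels do not say how it was made. Background was corrected by normexp with control parameters inferred from the detection p-values (offset 16), followed by quantile normalization and log2 (limma 3.58.1, R 4.3.3), which shrinks differences of dim probes. Probes were kept where the detection p was under 0.05 on 3 or more arrays. Every kept probe was fitted with lmFit and eBayes and adjusted by Benjamini-Hochberg. Gene names came from the platform annotation (1 gene for 34885 probes, several for 18, none for 10378). For lists, the probe with the highest mean stood for its gene. All 10 Polycomb genes are named, with Chd1 and the 3 genes of largest absolute difference in each further Polycomb list and in the target list. Marker genes are named to state which were present or at background. Values are also given for Sox2, Zfp42, Esrrb, Nanog, Dppa5a and Thy1, chosen after their values were seen, and for Pou5f1. Members and lists were chosen with earlier results of these data known. Replicates were numbered in accession order. The fit was tested on simulated data.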

Additional observations from a re-analysis of the deposited data

How the results depend on the processing

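Results were recomputed under 16 alternatives: no background correction, a normexp offset of 50, median or 75th percentile scaling, the authors' processed intensities, no or a stricter detection filter, a trended robust variance, array weights, 1 probe per gene, and each array left out. No Polycomb probe passed the adjusted threshold under any of them (smallest adjusted p = 0.161 by limma, with array weights), nor did any of the wider Polycomb list. Over all probes the number called was 31 with trended robust variance, 1 under median scaling and 1 with array weights, against 0. Those at an unadjusted p under 0.05 numbered 1667, and 3382 with no detection filter, 3118 with array weights and 900 to 2688 with 1 array left out. Of these calls 45.2% were higher in Chd1 shRNA, against 91.5% with median scaling. Polycomb probes at an unadjusted p under 0.05 numbered 2, and 1 with 75th percentile scaling, 1 with 1 probe per gene and 0 to 4 with 1 array left out. Of 215 probe values recomputed for the Polycomb genes, 207 kept their sign. This count includes settings that cannot change a difference: no or a stricter detection filter, trended robust variance and 1 probe per gene. Ezh2 kept its sign at only -0.0033 with median scaling. Cbx7 turned to 0.036 with median scaling. Phc1 ILMN_2773464 turned to -0.062 with array weights, -0.082 without Chd1 shRNA replicate 1, and -0.021 and -0.035 without control replicates 2 and 3 (range -0.082 to 0.22 with 1 array left out). Ring1 ILMN_2770715 turned to -0.084 with 75th percentile scaling, and to -0.053 and -0.034 without Chd1 shRNA replicate 1 and control replicate 2 (range -0.053 to 0.22). Median scaling also turned Rbbp4 (0.072), Kdm6b (0.069) and Chd1 ILMN_2958382 (0.020), the last running from -0.27 to 0.096 with 1 array left out, 0.096 being without control replicate 3. The cause of these turns was not tested. The Chd1 difference ran from -2.52 to -1.18. No paired analysis was possible because the labels give the groups no shared replicate numbers.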

Other observations

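Known targets of Polycomb repression in ES cells were looked up as a further list of 30 developmental and cell cycle genes, 27 of which had a probe. Of these, 17 were read by no probe past the detection filter, among them Pax3, Pax6, Gata4, Sox17 and Eomes. Of the 10 that passed, 9 had higher means in Chd1 shRNA arrays, where 5823 of all 11600 genes did, with a median log2 difference of 0.25 beside 0.0012 over all genes. Some of the 10 lay near background. Cdkn2a (0.25, SE 0.27, on ILMN_1226950) was detected on 3 Chd1 shRNA arrays and 1 control array, and passed mainly through the group where it was higher. Another kept Cdkn2a probe, ILMN_1227342, was detected on as many arrays of each group. It gave 0.51 (SE 0.21), with an unadjusted p under 0.05 by limma. Nkx2-5 (0.15, SE 0.20) and Evx1, the gene with a lower mean (-0.052, SE 0.32), were each detected on 3 Chd1 shRNA and 2 control arrays. None of the 10 passed the test by limma. By the probe with the highest mean of each gene, 1 had an unadjusted p under 0.05, a share close to the 10.8% of all genes. The cyclin-dependent kinase inhibitor gene Cdkn2b read 6.47, 8.07 and 8.59 in the Chd1 shRNA arrays, against 5.86, 6.06 and 7.94 in the control arrays, a difference of 1.09 (SE 0.63). Meis2, a homeobox gene, read 6.62, 7.18 and 7.63 in the Chd1 shRNA arrays, against 6.01, 5.95 and 7.15 in the control arrays (0.77, SE 0.36). Gata6, an endoderm regulator, read 5.73, 6.58 and 6.58 in the Chd1 shRNA arrays, against 5.47, 5.45 and 6.06 in the control arrays (0.64, SE 0.28). For Cdkn2b, Meis2 and Gata6 control replicate 3, the control with the most fibroblast signal, was the highest control. For these genes Chd1 shRNA replicate 1, with the least fibroblast signal of its group, was also the lowest of its group. It was not the lowest of its group for Cdkn2a, Nkx2-5 or Evx1. The part of feeder RNA in these values was not tested.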
